A study of Mus musculus with 6 samples.

Results

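The genes described here are the ligands and receptors of the vascular endothelial growth factor (VEGF) and angiopoietin families, chosen by name: the ligands *Vegfa*, *Vegfb*, *Vegfc* and *Vegfd*, the receptors *Flt1* and *Kdr*, the co-receptors *Nrp1* and *Nrp2*, and the angiopoietins *Angpt1* and *Angpt2*. Of these 10 genes, 9 were measured among 24016 mouse genes, and *Kdr* was not analysed here. The cells were MC3T3-E1, a clonal preosteoblast line from mouse calvaria, and all of them were wild type. They had been differentiated for 6 days with β-glycerophosphate (10 mM) and ascorbic acid (50 µg/ml). RNA-seq libraries were made from 3 cultures given vehicle and 3 given 100 nM corticosterone for 24 h, and calcitriol (10 nM) is listed in the medium of both groups. Corticosterone is the main glucocorticoid of mice, and the question addressed by the comparison was which transcripts it changes in these osteoblasts.

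VEGFs are secreted dimers that act through receptor tyrosine kinases on endothelial cells, with VEGF-A as the principal driver of blood vessel growth and VEGF-C and VEGF-D as the main lymphatic ligands. Neuropilins bind VEGF isoforms and class 3 semaphorins beside the signalling receptors, and angiopoietins regulate vessel maturation through the receptor Tie2. In bone, osteoblasts and their precursors are a known source of VEGF-A, which couples vessel ingrowth to bone formation.

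The members of the family that passed the test below and had a RefSeq promoter window were *Vegfa*, *Vegfd*, *Flt1* and *Nrp2*, and their sequence upstream of the start is shown because these genes differed in direction between the groups. The sequences are from RefSeq (GRCm38.p6), are written 5′ to 3′ along the strand of the gene, and were trimmed to lie outside every annotated transcript. They cover chr17:46032378-46032627 (minus strand), chrX:164373272-164373377 (plus), chr5:147726012-147726261 (minus) and chr1:62703067-62703284 (plus), respectively. Capitals mark the GC box, GGGCGG or its reverse complement CCGCCC, the core letters bound by Sp-type factors.
Vegfa: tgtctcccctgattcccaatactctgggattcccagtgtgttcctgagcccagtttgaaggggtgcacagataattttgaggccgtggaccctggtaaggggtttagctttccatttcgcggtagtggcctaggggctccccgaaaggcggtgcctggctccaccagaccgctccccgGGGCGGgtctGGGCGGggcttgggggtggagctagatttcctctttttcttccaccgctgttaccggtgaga
Vegfd: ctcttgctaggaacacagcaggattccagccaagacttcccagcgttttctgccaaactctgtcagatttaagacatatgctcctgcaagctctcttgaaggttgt
Flt1: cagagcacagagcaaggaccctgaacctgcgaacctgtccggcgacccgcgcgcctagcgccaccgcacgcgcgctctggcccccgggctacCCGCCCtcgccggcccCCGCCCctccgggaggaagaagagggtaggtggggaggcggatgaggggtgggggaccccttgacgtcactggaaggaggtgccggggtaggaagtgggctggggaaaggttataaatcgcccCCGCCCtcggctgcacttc
Nrp2: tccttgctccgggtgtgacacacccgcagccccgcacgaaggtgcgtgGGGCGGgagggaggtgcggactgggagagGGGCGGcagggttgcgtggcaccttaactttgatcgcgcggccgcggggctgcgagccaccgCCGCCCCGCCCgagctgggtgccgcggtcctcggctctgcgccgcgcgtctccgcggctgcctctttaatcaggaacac

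The *Vegfa* stretch held 2 GC boxes, the *Flt1* stretch 3 and the *Nrp2* stretch 4, of which 2 shared a base, whereas the *Vegfd* stretch of 106 bases held none. The GC content was 59.2% for *Vegfa*, 70.4% for *Flt1* and 72.5% for *Nrp2*, compared with 47.2% for *Vegfd*. RefSeq windows of 250 bases before the start were found for 8 of the 10 genes, with 9 windows in all, and not for *Angpt1* or *Angpt2*. A GC box occurred in 32.7% of 32851 such windows of all genes, on either strand, and the median GC content of those windows was 52.4%. Among the full windows of these genes, only that of *Vegfd* held no GC box, and that of *Nrp2* held 5. No window of the 8 genes held the glucocorticoid receptor letters AGAACA, present in 16.1% of all windows, or the AP-1 letters TGANTCA, present in 6.75%. The hypoxia response core ACGTG occurred in 16.6% of all windows, and among these genes in 1 of the windows of *Vegfa*. That window (chr17:46025164-46025413) lies inside the gene, and the *Vegfa* window printed above held no such core. These matches describe letters in a short stretch and not binding.

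The libraries held 16020401 to 25638645 reads on genes, and all 3 corticosterone libraries (at most 18992332 reads) were shallower than the vehicle libraries (at least 19076586). Levels are given as normalized counts, which are reads divided by 1 size factor per library, so that 3 reads correspond to 2.32 to 3.84 normalized counts. A gene passed the test at a limma adjusted p under 0.05 over all genes, and was past the study's threshold if its log2 fold change was also over 1 in size. The glucocorticoid targets *Tsc22d3* and *Fkbp5* rose by 1.49 and 2.46 on the log2 scale (limma adjusted p = 9.5e-11 and 1.4e-13). Of 12 osteoblast markers all were measured, with 8 lower and 1 higher (*Spp1*) after corticosterone. The test was passed by 16.7% of all genes and by 31.1% of those with a mean of at least 10. The log2 fold changes of the lower markers lay between -0.15 (*Col1a1*) and -1.87 (*Bglap*). The summed level of the 12 was 1358638 to 1404850 with vehicle and 1183514 to 1239157 with corticosterone. Most of that sum came from *Col1a1*, *Col1a2* and *Spp1*, with vehicle means of 709237, 560839 and 102650 normalized counts.

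Of the 9 genes, 4 were higher after corticosterone (*Vegfa*, *Vegfd*, *Flt1* and *Angpt2*), 1 was lower (*Nrp2*), and 4 did not pass the test (*Vegfb*, *Vegfc*, *Nrp1* and *Angpt1*). Over all genes, 16.7% passed the test, 8.49% higher and 8.2% lower. The 9 genes all had a mean of at least 10, and among the 13880 genes at that level 31.1% passed, 15.8% higher and 15.3% lower. Past the study's threshold were 2 of the 9, *Flt1* and *Angpt2*, compared with 2.78% of all genes and 3.93% of those with a mean of at least 10. The groups did not overlap for 7 of the 9, for 29.6% of all genes and for 43.8% of those with a mean of at least 10. The median log2 fold change was 0.57 over the 9 genes, which is the value of *Angpt1*, and -0.01 over all genes. It was 0.25 without vehicle replicate 2 and 0.30 without corticosterone replicate 2. The split between all higher and lower calls depended on the scaling: it was 2040 higher and 1970 lower with the deposited size factors, 1349 and 2595 with upper-quartile scaling, and 1703 and 2521 with scaling to the same total. Because these are bulk cultures, a change in the share of cells that express a gene cannot be told apart from a change in RNA per cell.

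**Figure D1:**
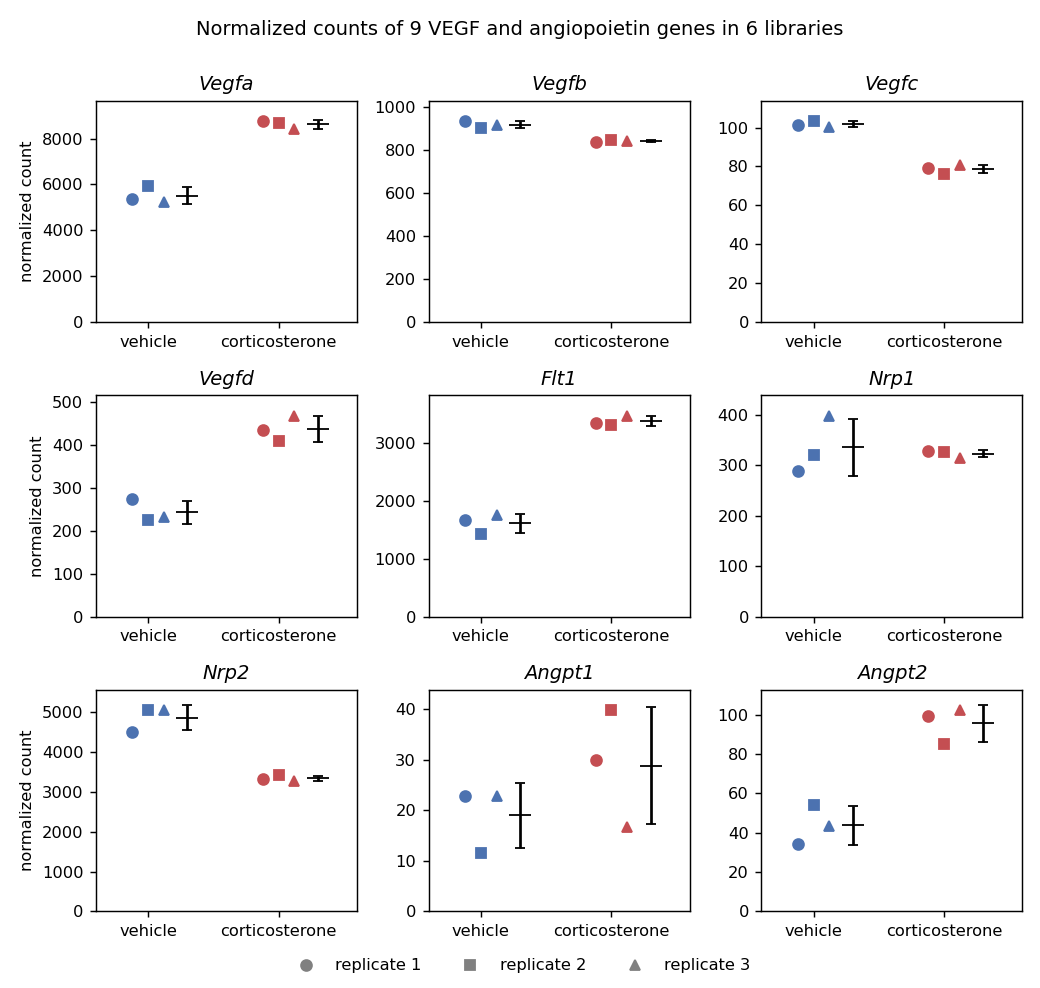
Normalized counts of the 9 measured genes, each panel with its own linear axis from 0, 1 symbol per library (vehicle in blue, corticosterone in red) and the mean ± SD of 3 libraries beside them. The groups are separate for 7 genes and overlap for *Nrp1* and *Angpt1*.

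*Vegfa* (ENSMUSG00000023951, chr17:46016993-46032369 of GRCm38, minus strand) encodes the ligand that activates both VEGF receptor 1 and VEGF receptor 2. Its normalized counts were 5362, 5943 and 5237 with vehicle and 8769.7, 8678 and 8395 with corticosterone. All corticosterone libraries lay above all vehicle libraries, and the differences within each group were small beside that gap. The mean rose from 5514 ± 377 to 8614 ± 195 (SD, n = 3), 1.56-fold, or 0.65 on the log2 scale with a 95% confidence interval of 0.55 to 0.75 (limma adjusted p = 3.8e-08). Each library held at least 5063 reads of the gene. Its transcript isoforms, which encode ligands with different affinity for heparan sulfate, were summed in the 1 value per gene.

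*Vegfb* (ENSMUSG00000024962, chr19:6982473-6987651, minus strand) encodes a ligand that binds VEGF receptor 1 and neuropilin-1. The vehicle libraries had 935.8, 902.3 and 914.4 normalized counts, and the corticosterone libraries had 838.3, 846.0 and 843.1. The groups did not overlap, and the difference was small: -0.12 on the log2 scale (95% confidence interval -0.24 to -0.01, limma adjusted p = 0.15). It passed the test with upper-quartile scaling and with scaling to the same total, where the adjusted p was 0.043 and 0.044.

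*Vegfc* (ENSMUSG00000031520, chr8:54077606-54187096, plus strand), the main lymphatic growth factor, was present at 101.4, 103.4 and 100.3 normalized counts with vehicle and 79.2, 76.2 and 80.6 with corticosterone. Its 2 groups were separate, yet it did not pass the test, with a log2 fold change of -0.37 (95% confidence interval -0.67 to -0.07, limma adjusted p = 0.093). Between 63 and 134 reads stood behind each value. With 1 variance prior for genes of every level, in place of a trend, the adjusted p was 0.030.

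*Vegfd* (ENSMUSG00000031380, chrX:164373378-164402650, plus strand) encodes the ligand most closely related to VEGF-C. Here the vehicle libraries had 274.1, 223.8 and 231.7 normalized counts and the corticosterone libraries 433.6, 409.8 and 468.2. The groups were well apart, and the gene rose 1.80-fold, from 243 ± 27.0 to 437 ± 29.4 (SD, n = 3). The log2 fold change was 0.85, with a 95% confidence interval of 0.65 to 1.05 (limma adjusted p = 4.1e-06). Of the lymphatic pair, *Vegfd* was therefore higher after corticosterone while *Vegfc* had an estimate below 0.

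*Flt1* (ENSMUSG00000029648, chr5:147561604-147726011, minus strand) encodes VEGF receptor 1, which binds VEGF-A tightly with weak kinase activity and also exists as a soluble form that sequesters the ligand. It had 1664, 1424 and 1749 normalized counts with vehicle and 3339, 3313 and 3476 with corticosterone. The lowest corticosterone library lay far above the highest vehicle library. The mean rose 2.09-fold, from 1612 ± 169 to 3376 ± 87.3 (SD, n = 3), a log2 fold change of 1.07 with a 95% confidence interval of 0.94 to 1.20 (limma adjusted p = 2.9e-09). Without vehicle replicate 2, the lowest library, the log2 fold change was 0.98 and no longer past the study's threshold of 1, although the gene still passed the test. The soluble and the membrane-bound form were not separated by 1 value per gene.

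Since *Flt1* is best known from endothelium, 12 endothelial markers were read beside it. Of these, 8 were measured, none passed the test, and their summed level was 49.6 to 67.3 normalized counts with vehicle and 55.2 to 67.8 with corticosterone, ranges that overlapped. The defining markers were at or near 0: *Pecam1* had 0 to 9 reads per library, *Emcn* 0 to 2, *Robo4* 0 to 1 and *Tie1* 0 to 4, and the highest, *Vwf*, had 22 to 46. The level of *Flt1* alone was thus many times the sum of the 8 markers in every library. Of 8 mural markers, 7 were measured, 1 was lower (*Cspg4*) and their sum was 9249 to 9275 with vehicle and 8064 to 8607 with corticosterone. Most of that sum came from *Pdgfrb*, *Cspg4* and *Notch3*, with vehicle means of 6866, 1319 and 1042 normalized counts. The others were low: *Rgs5* had 2 to 18 reads per library, *Abcc9* 0 to 2, *Myh11* 2 to 6 and *Des* 14 to 29. For macrophages 4 of 8 markers were measured, with sums of 264 to 303 with vehicle and 215 to 239 with corticosterone. Of these, 2 were lower, *Lyz2* and *Mrc1*, while 16.7% of all genes passed the test. Most of the sum came from *Lyz2*, with a vehicle mean of 229 normalized counts. *Mrc1* had only 4, 12 and 2 reads with vehicle and 1, 0 and 0 with corticosterone.

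*Nrp1* (ENSMUSG00000025810, chr8:128358604-128503363, plus strand) encodes neuropilin-1, the co-receptor for VEGF-A and semaphorin 3A. It was found at 288.7, 319.5 and 398.2 normalized counts with vehicle and at 327.6, 325.8 and 314.7 with corticosterone. The corticosterone values lay inside the vehicle range, whose width came from vehicle replicate 3. The log2 fold change was -0.04 (95% confidence interval -0.26 to 0.17, limma adjusted p = 0.86), and it was 0.087 without that library.

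*Nrp2* (ENSMUSG00000025969, chr1:62703285-62818695, plus strand) encodes neuropilin-2, the co-receptor for VEGF-C, VEGF-D and semaphorin 3F. Its normalized counts of 4513, 5051 and 5057 with vehicle fell to 3321, 3423 and 3284 with corticosterone. The highest corticosterone library lay well below the lowest vehicle library. The mean changed from 4873 ± 313 to 3343 ± 71.9 (SD, n = 3), to 0.686 of the vehicle level. On the log2 scale *Nrp2* fell by 0.54 (95% confidence interval -0.64 to -0.44, limma adjusted p = 4.1e-07), the only decrease among the 9 genes that passed the test. The genes *Gm29083* and *Gm37121*, which overlap it, had at most 16 and 35 reads per library.

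*Angpt2* (ENSMUSG00000031465, chr8:18690263-18741562, minus strand) encodes the angiopoietin that mostly antagonizes Tie2. With vehicle it had 34.1, 54.0 and 43.4 normalized counts, and with corticosterone 99.6, 85.0 and 102.3. The groups did not overlap, and the mean rose 2.18-fold, from 43.8 ± 9.99 to 95.7 ± 9.29 (SD, n = 3). The log2 fold change was 1.14, with a 95% confidence interval of 0.72 to 1.57 (limma adjusted p = 0.00053), from 42 to 93 reads per library. This was the largest estimate of the 9 with all libraries, although its interval included the estimate of *Flt1*. Without vehicle replicate 1 it was 0.98, smaller than that of *Flt1* and under the study's threshold, and the gene still passed the test. *Angpt2* lies within *Mcph1*, on the opposite strand. *Mcph1* had 405, 397 and 471 normalized counts with vehicle and 503, 510 and 491 with corticosterone, a log2 fold change of 0.24 (limma adjusted p = 0.038). Whether the counting used the strand is not given in the sources used here, and the part of *Mcph1* reads in the *Angpt2* result was not tested.

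*Angpt1* (ENSMUSG00000022309, chr15:42424723-42676977, minus strand) encodes the agonist of Tie2. It had 22.7, 11.6 and 22.8 normalized counts with vehicle and 30.0, 39.8 and 16.6 with corticosterone. The groups overlapped, each library held 13 to 36 reads, and no difference was detected. The log2 fold change was 0.57 with a 95% confidence interval of -0.26 to 1.41 (limma adjusted p = 0.41). Leaving out 1 library moved the estimate between 0.25 (without vehicle replicate 2) and 0.92 (without corticosterone replicate 3), and it was 0.30 without corticosterone replicate 2. Of its transcripts' 31-base words, 14.1% also lie in transcripts of other genes, and 12.0% in a transcript of the opposite-strand gene *Gm17473* alone. That gene had 3 reads in corticosterone replicate 2 and none in the other libraries.

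**Figure D2:**
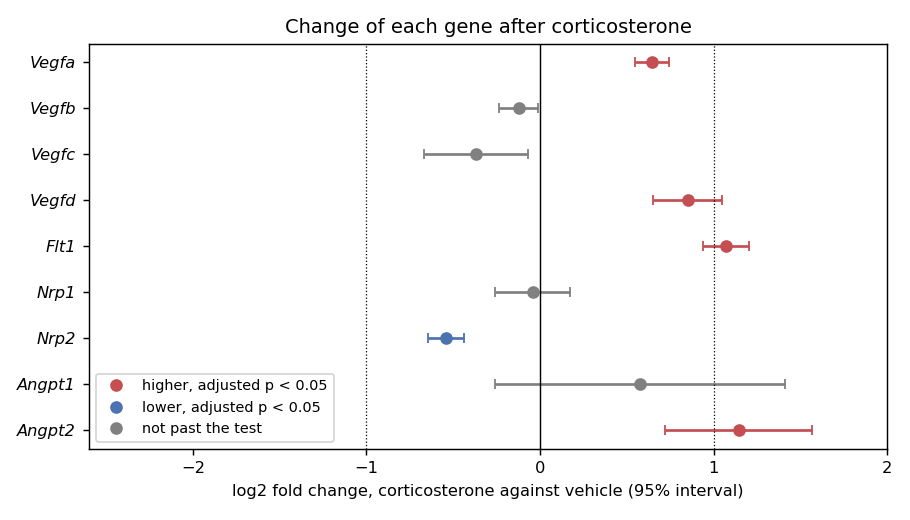
Log2 fold change of each of the 9 genes (corticosterone minus vehicle, log2 of the value plus 0.1) with its 95% confidence interval from limma, red for higher, blue for lower, grey for genes that did not pass the test, and dotted lines at the study's threshold of 1 in each direction. *Vegfa*, *Vegfd*, *Flt1* and *Angpt2* lie to the right of 0 and *Nrp2* to the left.

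To compare levels between genes, normalized counts were divided by the length of the merged exons in kilobases (kb). With vehicle, *Vegfa* was the highest at 1287 normalized counts per kb, followed by *Vegfb* at 572 and *Nrp2* at 412. *Flt1* at 119 and *Vegfd* at 101 overlapped in their ranges and could not be ordered. Below them came *Vegfc* at 41.5, *Nrp1* at 34.3, *Angpt2* at 11.9 and *Angpt1* at 3.65, and among these the highest library of *Nrp1* (40.7) nearly reached the lowest of *Vegfc* (41.0). With corticosterone the levels were 2010.3 for *Vegfa*, 525 for *Vegfb*, 282 for *Nrp2*, 250.0 for *Flt1* and 182 for *Vegfd*, and no neighbours among them overlapped. *Nrp1* at 33.0 and *Vegfc* at 32.1 normalized counts per kb then overlapped, and *Angpt2* at 25.9 stood above *Angpt1* at 5.53. The order of *Nrp2* and *Flt1* with corticosterone rests on the lengths used, 11.842 and 13.504 kb. Before division their normalized counts overlapped, at 3284 to 3423 for *Nrp2* and 3313 to 3476 for *Flt1*. Merged exons pool all annotated transcripts of a gene, and which of them the cells used was not tested.

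**Figure D3:**
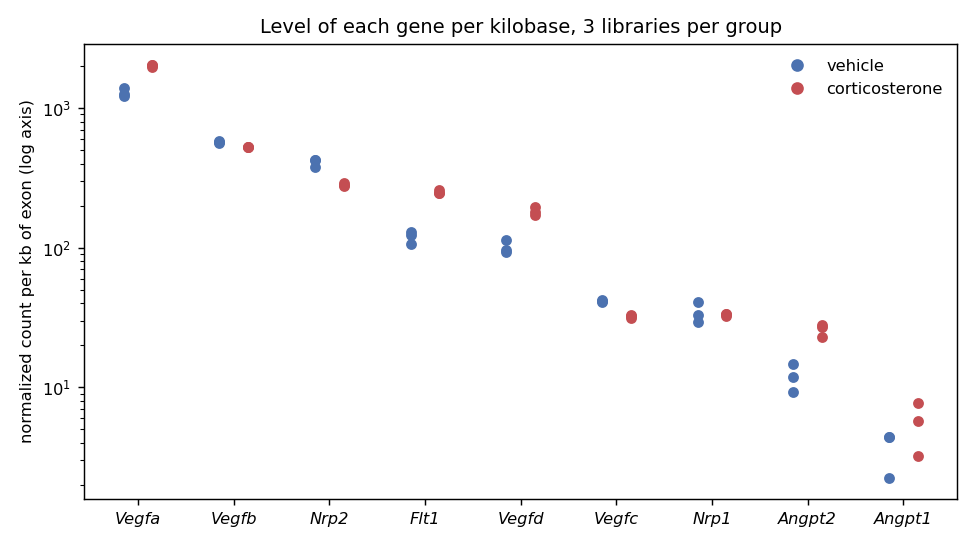
Normalized counts per kb of merged exons on a log axis, with 1 point per library, vehicle in blue and corticosterone in red, and genes ordered by their vehicle mean. *Vegfa* is highest and *Angpt1* lowest with both treatments.

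Summed per kb, the 4 VEGF ligands amounted to 2001 ± 78.2 with vehicle and 2749 ± 35.0 with corticosterone (SD, n = 3). *Vegfa* made up 62.9% to 66.5% of that sum in the vehicle libraries and 72.2% to 73.6% in the corticosterone libraries. The ranges of this share did not overlap.

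A ratio of 2 genes within a library does not depend on how the library is scaled, and 4 pairs were compared in this way. The ratio of *Vegfa* to *Vegfb* was 5.73, 6.59 and 5.73 with vehicle and 10.5, 10.3 and 9.96 with corticosterone, a difference of 0.77 on the log2 scale. The log2 ratio of *Vegfc* to *Vegfd* went from -1.25 to -2.47, a difference of -1.22, and that of *Nrp1* to *Nrp2* from -3.87 to -3.37, a difference of 0.50. In these 3 pairs the groups did not overlap, and the two-sided exact permutation test gave p = 0.1, the smallest it can give for 3 against 3 (0.13 after adjustment over 4 pairs), so this test cannot reach 0.05 here. For *Angpt1* to *Angpt2* the log2 ratio was -1.24 and -1.81, the groups overlapped, and the exact p was 0.4.

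**Figure D4:**
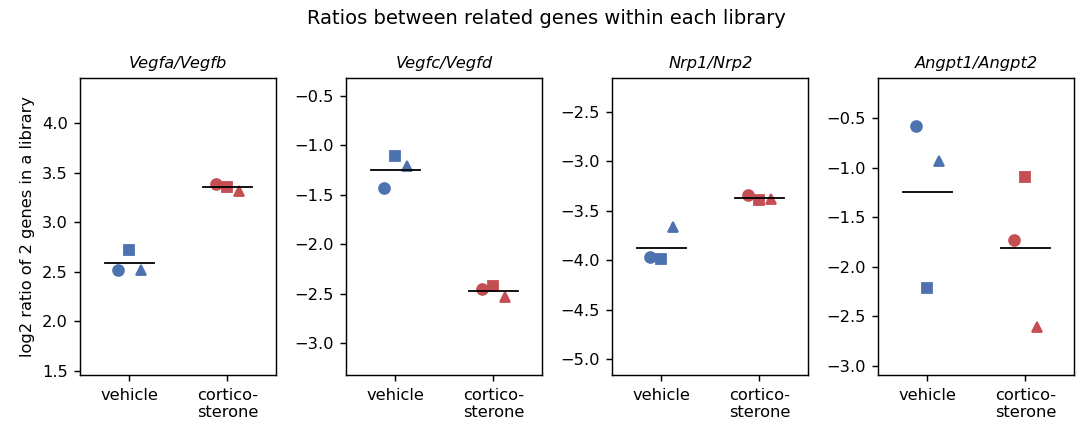
Log2 ratio of 2 genes within each library for 4 pairs, with vehicle in blue, corticosterone in red and a bar at each mean. Axes have the same length but different starts. The groups are apart for *Vegfa*/*Vegfb*, *Vegfc*/*Vegfd* and *Nrp1*/*Nrp2* and overlap for *Angpt1*/*Angpt2*.

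Further ligands, receptors, neuropilin partners and adaptors of these systems formed a list of 23 genes, of which 20 were measured. Among the 20, 7 were higher, 1 was lower and 12 did not pass the test, with a median log2 fold change of 0.26 beside -0.01 over all genes. The test was passed by 16.7% of all genes. In the fit of genes with a mean of at least 10, 31.1% passed. Of the 16 list genes in that fit, 8 were higher and 1 lower, with a median log2 fold change of 0.16. *Ptprb*, which encodes the phosphatase VE-PTP that restrains Tie2, had 24.3, 25.5 and 14.5 normalized counts with vehicle and 119.9, 97.2 and 134.3 with corticosterone. The 2 groups were far apart, with a log2 fold change of 2.48 (SE 0.25, limma adjusted p = 1.4e-06). *Plxna2*, which encodes a plexin that signals with neuropilins for semaphorins, had 315, 237 and 289 normalized counts with vehicle and 914, 852 and 869.9 with corticosterone. Its log2 fold change was 1.66 (SE 0.09, limma adjusted p = 1.3e-09), and these 2 genes were the ones past the study's threshold. *Plxna3*, the related plexin, fell by 0.57 on the log2 scale, from 1299 ± 63.5 to 875 ± 28.0 (SD, n = 3, limma adjusted p = 1.3e-06), and its groups did not overlap.

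*Angptl4*, an angiopoietin-like inhibitor of lipoprotein lipase and a known glucocorticoid target, rose from 169 ± 32.5 to 329.7 ± 2.97 (SD, n = 3), by 0.98 on the log2 scale (limma adjusted p = 1.2e-05). *Plcg1*, the phospholipase that VEGF receptors recruit, rose by 0.49 and *Nck1*, an adaptor that links receptor kinases to actin, by 0.27 (limma adjusted p = 2.8e-07 and 0.024). *Angpt4*, a further Tie2 ligand, rose by 0.42 with a limma adjusted p of 0.049. *Tek*, which encodes Tie2, had 0 to 6 reads per library, and *Flt4*, which encodes VEGF receptor 3, was not analysed here. *Pgf*, which encodes placental growth factor, had 5 to 10 reads and a log2 fold change of 0.39 (limma adjusted p = 0.70).

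Hypoxia-inducible factors (HIFs) are a classical regulator of *Vegfa* transcription, and 28 genes of that pathway and its targets were read beside it. Of these, 3 were higher, 10 were lower and 15 did not pass the test, and the median log2 fold change was -0.23 (-0.14 without vehicle replicate 1). Among all genes 16.7% passed. In the fit of genes with a mean of at least 10, 31.1% passed, and of 25 list genes 2 were higher and 13 lower. The list pools the factors and their regulators with target genes. Its lower genes included the regulators *Vhl* and *Egln1*, at -0.24 each on the log2 scale (limma adjusted p = 0.011 and 0.0086). *Hif1a*, the oxygen-regulated subunit, rose from 2566 ± 133 to 3006 ± 71.8 normalized counts (SD, n = 3), by 0.23 on the log2 scale (limma adjusted p = 0.0023). *Epas1*, which encodes the HIF-2α subunit, had 1 read in every library. *Ddit4*, an inhibitor of mTORC1 signalling that glucocorticoids also induce, had 6535, 6218 and 6210.3 normalized counts with vehicle and 11849.9, 11620.2 and 13380.2 with corticosterone, a log2 fold change of 0.96 (limma adjusted p = 7.2e-10). *Hif3a* had 2, 2 and 0 reads with vehicle and 8, 4 and 11 with corticosterone (limma adjusted p = 0.040).

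Of the genes that fell, 4 others are described here. *Ldha*, lactate dehydrogenase A, had 15811, 12230.3 and 14209 normalized counts with vehicle and 9409.9, 8306 and 10059 with corticosterone, and fell by 0.60 on the log2 scale (limma adjusted p = 2.3e-05). *Bhlhe40*, a transcriptional repressor of the circadian and hypoxic responses and also a known glucocorticoid target, fell by 0.80 (limma adjusted p = 2.7e-07). *Pdk1*, the kinase that limits pyruvate entry into mitochondria, fell by 0.50, with groups that overlapped (limma adjusted p = 0.0072). *P4ha1*, a collagen prolyl hydroxylase, fell by 0.43 (limma adjusted p = 0.0019). The count of 10 lower genes depended on single libraries: it was 5 without vehicle replicate 1, 14 without vehicle replicate 2, 3 without vehicle replicate 3, 4 without corticosterone replicate 1, 4 without corticosterone replicate 2 and 6 without corticosterone replicate 3. Vehicle replicate 2 was the lowest vehicle library for 19 of the 28 genes, compared with 36.4% of the 13880 genes with a mean of at least 10.

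Outside both families, 25 secreted activators and inhibitors of blood vessel growth were all measured. Of them 4 were higher, 7 were lower and 14 did not pass the test, while 16.7% of all genes passed. In the fit of genes with a mean of at least 10, 31.1% passed, and of 23 list genes 6 were higher and 7 lower. The median log2 fold change of the 25 genes was 0.06, beside -0.01 over all genes. It lay between 0.022 and 0.090 when 1 library was left out. *Ccn2*, a matricellular growth factor, had 969, 1057 and 962 normalized counts with vehicle and 2977, 2924 and 2811 with corticosterone, a log2 fold change of 1.54 (SE 0.05, limma adjusted p = 3.8e-12). *Vash1*, which encodes the endothelium-derived inhibitor vasohibin-1, had 28.4, 44.8 and 50.7 with vehicle and 13.9, 23.2 and 17.9 with corticosterone, and fell by 1.15 on the log2 scale (SE 0.32, limma adjusted p = 0.019). Both were past the study's threshold. The chemokine gene *Cxcl12* rose by 0.93 and the angiogenesis inhibitor *Thbs1* by 0.59 (limma adjusted p = 7.4e-08 and 5.3e-07). *Hgf*, hepatocyte growth factor, fell by 0.57, *Timp3*, a metalloproteinase inhibitor that also blocks VEGF binding to its receptor, by 0.55 and *Apln*, the ligand apelin, by 0.38 (limma adjusted p = 0.0085, 1.2e-07 and 0.040). The 7 lower genes became 3 without vehicle replicate 3 and 4 without either corticosterone replicate 1 or corticosterone replicate 3. Activators and inhibitors were thus found in both directions, and calls over all genes also went both ways (8.49% higher and 8.2% lower).

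**Figure D5:**
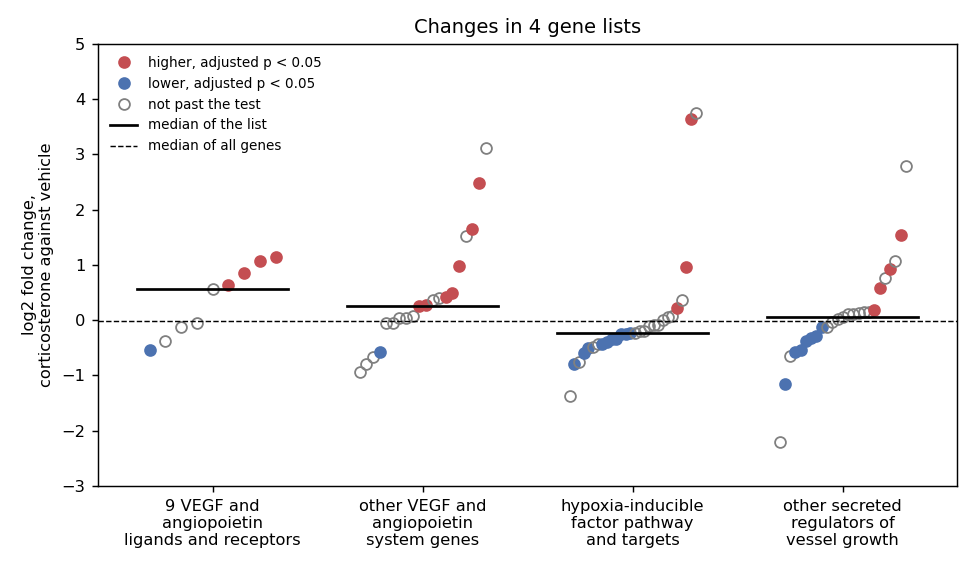
Log2 fold change (corticosterone minus vehicle) of each measured gene in the family and the 3 further lists, with red (higher) and blue (lower) points for genes that passed the test, open points for the others, a bar at each median and a dashed line at the median of all genes. With all libraries the medians are 0.57 (the value of *Angpt1*, and 0.25 without vehicle replicate 2), 0.26, -0.23 and 0.06, beside -0.01 over all genes.

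The genes whose log2 values followed *Vegfa* most closely over the 6 libraries were *Tnfaip2* (Pearson r = 0.9992), *Gm49797* (0.9987) and *Agt* (0.9987), out of 13855 genes compared. For *Angpt2*, they were *Gm26773* (0.9976), *Teddm2* (0.9974) and *Itsn1* (0.9970). These correlations are descriptive, since both treatments are among the 6 points and the genes share libraries and depth.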

How the data were processed

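RNA-seq libraries of differentiated MC3T3-E1 cells (3 vehicle, 3 corticosterone) were analysed. The kit was NEB Next Ultra, and the submitters' processing notes name build mm10. The aligner, counter, annotation and use of strand are not given in the sources used here. The authors deposited 1 table, named FPKM, whose signal is never negative. In each library 100% of the values were whole multiples of 1 step (tolerance 0.01 read) that did not vary with gene length, which makes the values read counts divided by 1 size factor and are called normalized counts. The design had assumed either form and its log-scale test was kept.

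The test was limma 3.58.1 (variance trend, two-sided) in R 4.3.3, run on log2 values after adding 0.1. Genes needed a mean of 0.1 or more, and p-values were adjusted by Benjamini-Hochberg over 24016 genes, of which 23983 had a symbol. The filter removed no gene. Log2 fold changes include the added 0.1, which weighs on weakly expressed genes. Fold changes without "log2" are ratios of group means. Single ratios were compared with an exact permutation test, and for the 7 genes whose groups did not overlap this test also gave p = 0.1, its smallest value. The study used DESeq2 with an adjusted p under 0.05 and a log2 fold change over 1. Alternatives were pseudocounts of 1 and 0.01, other filters (none, or a mean of at least 10), a replicate block, no variance trend, 2 other scalings, edgeR 4.0.16 and DESeq2 1.42.0 on recovered reads, thinning to the smallest library, and leaving out each library. The fits were tested on simulated data.

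The members and lists were chosen with earlier results of these data known. Named from each list are the genes past the study's threshold, up to 5 others that passed the test with the largest change, and genes of defining role. *Vhl* and *Egln1* were named in addition, as regulators within the HIF list. *Aldoa* had 2 rows, and the one with more reads was taken. Reads of 3 per library were used as the floor and cover counting error only. The labels call the cultures replicates without saying how independent they are, so p-values apply to these cultures only. The limma p-values set each difference against a variance that combines the spread between cultures with a trend over all genes. Passages are stated differently in the labels and the methods. Promoter windows were read from RefSeq and gene positions and exon lengths from GENCODE, both on GRCm38. Figures were made with Python 3.11.15 and matplotlib 3.10.9. Replicate numbers are shared between groups, but the labels do not pair the cultures, and the correlations of same-numbered libraries' deviations were -0.044, 0.0014 and 0.023, so the block was kept as an alternative.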

Additional observations from a re-analysis of the deposited data

How the results depend on the processing

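The 5 genes that passed the test kept their direction and their call under all 17 alternatives, that is 11 other settings and 6 fits that each left out 1 library. Among the settings, the one without a filter was identical to the main fit, because the filter removed no gene, and adds nothing to this count. The log2 fold change of *Nrp1* ranged from -0.14 to 0.087 when 1 library was left out, with the sign reversed without vehicle replicate 3 (limma adjusted p = 0.59). Without a variance trend, 873 genes were higher and 760.0 lower, the lower genes of the family were 2 (with *Vegfc*), the further VEGF and angiopoietin genes had 4 higher, the HIF list 1 higher and 1 lower, and the other secreted regulators 3 lower. Upper-quartile scaling gave 1349 higher genes in all and 2 lower in the family (with *Vegfb*), scaling to the same total also 2 (with *Vegfb*), and thinning to the smallest library 2 (with *Vegfc*, adjusted p = 0.039). Leaving out 1 library gave 1148 to 1611 lower genes in all, 204 to 321 past the study's threshold, 3 to 14 in the HIF list and 3 to 6 among other secreted regulators. The cause of these shifts was not tested. With the replicate block, 2012 genes were higher and 1893 lower, and no call among the 9 genes changed. *Angpt4*, *Hif3a*, *Mcph1* and *Mrc1* did not pass the test there (adjusted p = 0.062, 0.061, 0.052 and 0.059). In the paired sign permutation of the ratios the smallest p is 0.25. edgeR called 2219 genes higher and 2108 lower and DESeq2 1904 and 1730.0. Reads were few for *Angpt1* (13 to 36), *Pgf*, *Tek* and *Hif3a*, and the part of depth in their results was not tested.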
